A study of Mus musculus with 4 samples.

Results

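The interferon regulatory factor (IRF) family was examined in chromatin accessibility profiles of mouse bone marrow-derived macrophages (BMDMs). Peaks of the 4 deposited lists were merged wherever they overlapped by at least 1 bp, and a merged region was taken as an IRF family region when its highest peak was annotated to Irf1, Irf2, Irf3, Irf4, Irf5, Irf7, Irf8, Irf9 or Irf2bp2. This gave 75 of 60710 regions, assigned to 8 of the 9 genes. ATAC-seq, in which a transposase cuts accessible DNA, was performed on wild-type C57BL/6 cells from mice aged 8 to 12 weeks, differentiated for 6 days with L929 supernatant as the source of MCSF. The control group (n = 2 libraries) received no cytokine, and the IL-4 group (n = 2 libraries) received IL-4 at 20 ng/ml for 1 h. The study named them biological replicates, with nothing here that says whether they came from separate animals, so p-values measure only the spread between these libraries. Each gene name is the annotation tool's nearest start site, and which gene a distal region acts on was not measured.

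IRF proteins share a DNA-binding domain that recognises GAAA repeats. IRF3 and IRF7 are switched on by kinases downstream of nucleic acid sensors and induce type I interferon, IRF9 is the DNA-binding subunit of the complex that answers interferon, IRF5 is linked to inflammatory macrophages, IRF4 to alternatively polarized macrophages, and IRF8 with the ETS factor PU.1 specifies the myeloid lineage. IRF2BP2 has no IRF DNA-binding domain and was named as a corepressor that binds IRF2. IL-4 activates STAT6, which favours a STAT palindrome with a 4-base spacing.

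The sequences of the regions to which the results return are given first, all on the plus strand of mm10, read 5′ to 3′. The following regions are shown because their peaks were uneven between the groups, with the single STAT palindrome of 4-base spacing in capitals and no listed motif for STAT or IRF factors in the others.
Irf8, 10938 bp upstream, chr8:120725339-120725538: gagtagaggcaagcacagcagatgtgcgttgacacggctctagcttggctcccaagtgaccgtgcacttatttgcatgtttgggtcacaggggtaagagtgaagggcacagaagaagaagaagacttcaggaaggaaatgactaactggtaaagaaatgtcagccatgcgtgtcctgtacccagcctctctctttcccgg
Irf2bp2, exon 2 of 2, chr8:126591658-126591787: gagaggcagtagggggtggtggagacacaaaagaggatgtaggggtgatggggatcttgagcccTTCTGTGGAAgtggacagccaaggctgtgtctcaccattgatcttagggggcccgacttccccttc
Irf2bp2, 22537 bp upstream, chr8:126615824-126616123: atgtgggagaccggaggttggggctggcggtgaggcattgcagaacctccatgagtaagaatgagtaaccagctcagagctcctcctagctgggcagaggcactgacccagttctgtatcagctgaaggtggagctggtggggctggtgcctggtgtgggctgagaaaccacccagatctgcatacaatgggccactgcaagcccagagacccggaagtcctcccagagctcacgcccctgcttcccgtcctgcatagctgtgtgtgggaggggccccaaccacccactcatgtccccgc

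A second set is shown for its IRF or STAT matches, with the match in capitals: a STAT palindrome of 3-base spacing at the Irf1 promoter, a pair of the same kind at the Irf8 promoter, an ETS-IRF composite at the Irf5 promoter, overlapping IRF repeats upstream of Irf4, and a STAT palindrome of each spacing beside an IRF repeat in intron 1 of Irf2.
Irf1 promoter, chr11:53769884-53769972: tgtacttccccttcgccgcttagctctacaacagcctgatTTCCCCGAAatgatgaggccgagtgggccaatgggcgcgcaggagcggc
Irf8 promoter, chr8:120736187-120736416: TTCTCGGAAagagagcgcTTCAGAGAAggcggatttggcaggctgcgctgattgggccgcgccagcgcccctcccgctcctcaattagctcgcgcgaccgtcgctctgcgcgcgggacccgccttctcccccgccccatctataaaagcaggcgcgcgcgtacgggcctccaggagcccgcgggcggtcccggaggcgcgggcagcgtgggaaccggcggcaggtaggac
Irf5 promoter, chr6:29529159-29529248: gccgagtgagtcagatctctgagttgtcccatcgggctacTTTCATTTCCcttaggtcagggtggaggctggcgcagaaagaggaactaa
Irf4, 10662 bp upstream, chr13:30738430-30738525: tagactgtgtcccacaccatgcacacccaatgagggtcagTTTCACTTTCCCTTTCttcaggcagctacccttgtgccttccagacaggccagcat
Irf2, intron 1, chr8:46778392-46778552: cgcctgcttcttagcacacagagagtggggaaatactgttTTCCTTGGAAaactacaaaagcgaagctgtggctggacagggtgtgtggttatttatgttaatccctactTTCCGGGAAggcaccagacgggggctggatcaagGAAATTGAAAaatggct

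Accessible regions were spread unevenly over the family. Irf2bp2 had 21 regions and Irf2 had 17, whereas Irf9 had 1 and Irf3 had none. Irf8 had 11, Irf4 had 10, Irf1 had 8, Irf5 had 4 and Irf7 had 3. Only 8 of the 75 regions lay at an annotated promoter (10.7%, beside 18.8% of all regions), and 40 were intergenic (53.3%, beside 35.8%). A further 20 were intronic (26.7%, beside 40.2%) and 7 lay in an exon, a UTR or a gene end (9.33%, beside 5.20%). Some of these labels belong to other transcripts. The intronic regions annotated to Irf1 and Irf4 lay outside those genes, and the gene-end regions annotated to Irf7 lay upstream of it. The median IRF family region was 231 bp long, beside 209 bp over all regions, and 49 of the 75 lay more than 10 kb from the start site. All but 1 of the regions annotated to Irf9, Irf7 and Irf5 lay within 8 kb of a start site, while those of Irf2 reached 112859 bp into and past the gene.

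**Figure D1:**
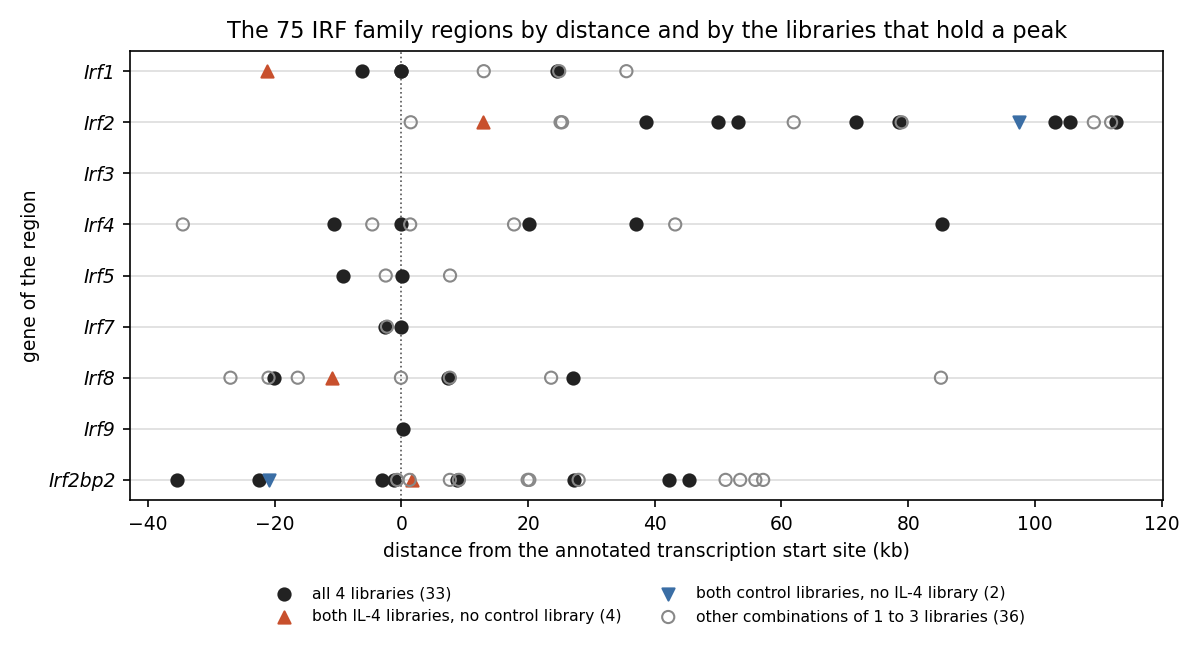
Distance of each of the 75 IRF family regions from the annotated transcription start site of its gene (x axis, kb, negative upstream), 1 row per gene. Filled circles mark the 33 found in all 4 libraries, upward triangles the 4 held by both IL-4 libraries and no control library, downward triangles the 2 held by both control libraries and no IL-4 library, and open circles the other 36. Irf3 has no region, and Irf2 and Irf2bp2 hold the most.

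Irf3, whose product is the kinase-activated inducer of type I interferon, had no region at all. No peak of any library lay within its gene body at chr7:44997648-45002848, and the nearest regions were 14319 bp to the left, annotated to Prmt1 and present in 1 library, and 13154 bp to the right, annotated to Scaf1 and present in 4. A missing peak does not show that the DNA was closed, because the lists hold only sites that passed the peak caller.

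A peak was present in all 4 libraries at 33 of the 75 regions (44.0%, beside 41.9% of all regions) and in a single library at 16 (21.3%, beside 29.6%). Of the rest, 9 had a peak in 2 libraries and 17 in 3, and in 9 of those 17 the missing peak was that of IL-4 replicate 2. The 16 peaks seen once had heights of 1.35, in intron 2 of Irf2, to 11.2, at 26978 bp upstream of Irf8, and 6, 6, 3 and 1 of them came from control replicates 1 and 2 and IL-4 replicates 1 and 2. As shares these were 8.0%, 8.0%, 4.0% and 1.33% of the 75 regions, beside 9.38%, 6.69%, 6.66% and 6.84% over all regions. Of the 75 regions, control replicate 1 held a peak at 58 (77.3%, beside 72.2% of all regions) and control replicate 2 at 55 (73.3%, beside 66.7%). IL-4 replicate 1 held one at 58 (77.3%, beside 66.5%) and IL-4 replicate 2 at 46 (61.3%, beside 62.15%). IL-4 replicate 2, the library with 46, was also the lowest of the series in peak number and median height. Its share of the IRF family regions lay near its share of all regions, whereas those of the other libraries lay above theirs. The difference between these shares was not tested. Peak lists held 39462 to 45250 peaks with a median height of 6.41 to 8.04, the height being the deposited score, read as −log10 of the peak caller's q-value. Sequencing depth is unknown, and both peak number and height grow with it. A change in log2 height is therefore a change in peak confidence and not in read number. The mean number of IRF family regions was 56.5 ± 2.12 in control and 52.0 ± 8.49 in IL-4 libraries (SD, n = 2 each), a difference of −4.5 (two-sided exact permutation test, p = 1.0, the smallest possible being 0.333). Without IL-4 replicate 2 the difference was 1.5, the opposite sign.

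The cells carried the peaks of macrophages. Promoter peaks were found in every library at the macrophage markers Cd68, Emr1 and Fcgr1, while Spi1, Csf1r and Itgam had none and Adgre1 is the newer symbol of Emr1. None of the T cell, B cell or erythroid markers had a promoter peak. Of the other myeloid markers, the neutrophil gene Mmp8 had one in each library, with a height of 14.7, 15.7, 5.34 and 8.47 in control replicates 1 and 2 and IL-4 replicates 1 and 2. Of 4 dendritic cell markers, Flt3 and Zbtb46 had a promoter peak in some libraries, with a summed height of 3.52, 5.40, 12.8 and 0. The part of these markers in the results was not tested.

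Promoter peaks were first compared between genes. Irf5 had the highest mean promoter height (16.4 ± 6.51, SD, n = 4), followed by Irf9 (16.1 ± 3.84), Irf1 (13.6 ± 3.88), Irf4 (8.05 ± 1.42) and Irf7 (7.51 ± 1.07). These lay at the 74.8th, 75.7th, 65.8th, 32.1st and 27.7th percentile of mean log2 height among the regions found in every library. In that measure Irf9 ranked above Irf5, and in the IL-4 libraries alone the Irf5 mean (11.03) was below those of Irf9 (14.0) and Irf1 (12.9). Each SD spans both groups and so includes the difference between them. The differences between genes were not tested. The Irf8 promoter had a peak in 3 libraries and that of Irf2bp2 in 3, and Irf2 had no region annotated as promoter.

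At the Irf5 promoter (chr6:29529079-29529626, 71 bp downstream of an internal start site), control libraries had a height of 20.2 and 23.5 and IL-4 libraries one of 12.6 and 9.48. Both IL-4 values were below both control values, also in the deposited heights. The change in quantile-normalised log2 height was −0.78 ± 0.34 (SE) with an adjusted p of 0.543 by limma with Benjamini-Hochberg adjustment over the 25442 regions found in every library. The region holds the ETS-IRF composite printed above. Leaving out 1 library at a time gave changes of −0.995 to −0.584.

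At the Irf9 promoter (chr14:55603886-55604562), the height was 20.7 and 15.5 in control and 16.6 and 11.3 in IL-4 libraries, so that the groups overlapped (log2 change −0.17 ± 0.34, limma adjusted p = 0.936). The change turned to 0.31 with summed peak heights. It was −0.05 without control replicate 1, −0.06 without IL-4 replicate 2, −0.30 without control replicate 2 and −0.28 without IL-4 replicate 1. Irf1, an interferon-inducible activator, had a promoter height of 17.0 and 11.5 in control and 16.7 and 9.18 in IL-4 libraries at chr11:53769782-53770157 (log2 change 0.06 ± 0.38, adjusted p = 0.985). The values of replicate 1 were the higher ones in both groups, and the sign of the change turned when IL-4 replicate 1 was left out (−0.20) or control replicate 2 (−0.15). A second Irf1 promoter region, annotated 66 bp upstream of another transcript, measured 7.11 and 4.04 in control and 7.59 and 4.88 in IL-4 libraries (log2 change 0.39 ± 0.54). That change was 0.08 without control replicate 2, 0.23 without IL-4 replicate 1, 0.67 without control replicate 1 and 0.06 with peaks merged within 500 bp.

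The Irf4 promoter (chr13:30749132-30749295) was 9.14 and 9.30 high in control and 7.43 and 6.34 in IL-4 libraries. These groups did not overlap, yet the normalised log2 change of −0.17 ± 0.49 was smaller than its error (adjusted p = 0.957 by limma). It was −0.07 without control replicate 2, −0.30 without control replicate 1 and −0.43 without normalisation. The Irf7 promoter (chr7:141266357-141266576) measured 7.99 and 6.09 in control and 7.39 and 8.58 in IL-4 libraries, overlapping as deposited but not after normalisation (log2 change 0.44 ± 0.51, adjusted p = 0.879, with 0.18 without IL-4 replicate 2 and 0.72 without IL-4 replicate 1). The Irf8 promoter, holding both STAT palindromes shown above, measured 6.06 and 8.51 in control and 7.52 in IL-4 replicate 1, with no peak in IL-4 replicate 2. The promoter of Irf2bp2 measured 2.58 in control replicate 1 and 4.70 and 6.19 in the IL-4 libraries, with no peak in control replicate 2. Neither of these promoters was among the tested regions with a peak in all 4 libraries. The nearest region annotated to Irf2 lay 1480 bp downstream of the start site, in intron 1. It measured 5.75 and 5.47 in control and 8.92 in IL-4 replicate 1, with no peak in IL-4 replicate 2. Of the 15 regions in the Irf2 gene body, 14 were annotated to Irf2, and the remaining one, named for another gene, was not examined here.

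**Figure D2:**
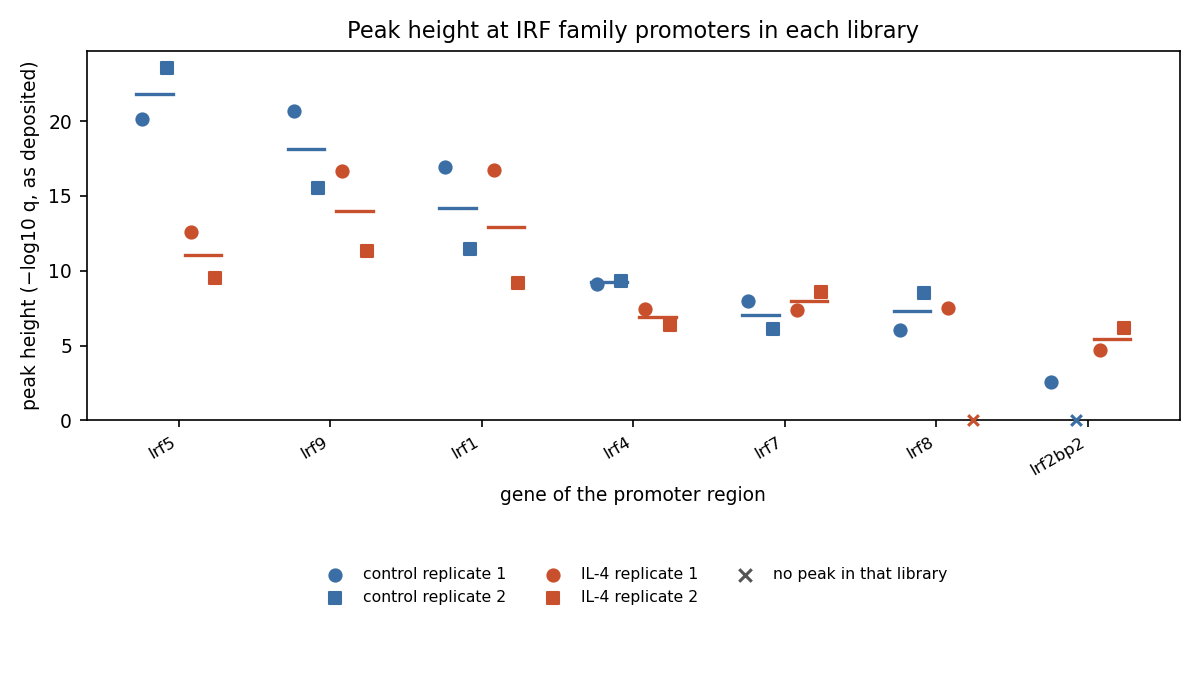
Peak height, as deposited, at the promoter region of 7 IRF family genes (y axis, −log10 q, linear from 0). Blue marks are control and orange marks IL-4 libraries, circles replicate 1 and squares replicate 2, short bars the group means, and crosses on the axis libraries with no peak. The Irf5 promoter shows the widest gap, with 20.2 and 23.5 in control against 12.6 and 9.48 in IL-4 libraries.

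The comparison of IL-4 with control addressed whether 1 h of IL-4 altered accessibility at the family's regions. None of the 33 regions tested passed an adjusted p of 0.05 by limma (lowest adjusted p = 0.367), beside 0.0236% of all 25442 regions, and 2 had an unadjusted p under 0.05 (6.06%, beside 8.28%). The median log2 change was −0.02 (SD over regions 0.437), beside −0.00065 (SD 0.504) over all regions, with 16 regions above 0 and 17 below. The sign held without each library in turn at 18 of the 33. It could hardly turn at those of the 18 where both IL-4 heights lay on 1 side of both control heights. Both IL-4 heights lay above both control heights at 5 regions (15.2%, beside 19.2% of all tested) and below them at 8 (24.2%, beside 18.6%). All 8 of the lower ones but 0 of the 5 higher ones were also apart in the deposited heights, where 12 regions were lower. The share of all regions apart in the deposited heights was not counted, so this split cannot be set beside the series. Without normalisation the median change of all 25442 regions was −0.21, and that of the IRF family regions −0.22.

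The regions that were apart and had an unadjusted p under 0.05 were 2 lower ones (6.06%, beside 4.02% of all tested) and 0 higher ones (beside 4.04%). One was the Irf5 promoter. The other lay 22537 bp upstream of Irf2bp2 (chr8:126615822-126616160, intergenic), with a height of 15.2 and 18.0 in control and 8.99 and 3.55 in IL-4 libraries. The means were 16.6 ± 1.97 and 6.27 ± 3.85 (SD, n = 2 each). Its log2 change was −1.36 ± 0.468 (limma adjusted p = 0.367), the most negative of the 33, while the other 32 lay between −0.81 and 0.80. It was −0.809 without IL-4 replicate 2, the library with the lower value, and −1.90 without IL-4 replicate 1.

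At other Irf2bp2 regions the changes were smaller. The region 27291 bp downstream of the start site measured 15.5 and 12.7 in control and 9.56 and 7.59 in IL-4 libraries (log2 change −0.48 ± 0.42), with no overlap. The tallest region of the whole family, 42231 bp downstream (chr8:126551014-126551396), measured 33.6 and 20.0 in control and 19.6 and 28.9 in IL-4 libraries, at the 93.5th percentile of the regions found in every library, and its groups overlapped (log2 change 0.01 ± 0.27, and −0.38 to 0.41 without 1 library). Over the 8 tested Irf2bp2 regions, 4 changes were above 0 and 4 below.

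Irf8 is a lineage-determining factor of macrophages. Its tallest region, 20175 bp upstream (chr8:120716017-120716370), had the largest positive change of the family, 0.80 ± 0.40 on the log2 scale (limma adjusted p = 0.609). The deposited heights were 10.7 and 9.57 in control and 23.9 and 9.36 in IL-4 libraries. The high value came from IL-4 replicate 1 alone, and IL-4 replicate 2 was below both controls before normalisation. Without IL-4 replicate 1 the change was 0.30, and without IL-4 replicate 2 it was 1.28. Of the other Irf8 regions tested, the one in exon 3 of 9 measured 9.34, 6.51, 8.12 and 4.67, and the one 27094 bp downstream 13.4, 13.1, 16.1 and 6.12, in the order control replicates 1 and 2 and IL-4 replicates 1 and 2.

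Irf2, known as an antagonist of IRF1, had 8 tested regions, all but 1 of them inside the gene, with 4 changes above 0 and 4 below. The tallest, in intron 5 of 8 (chr8:46811301-46811632), measured 22.5 and 19.04 in control and 15.2 and 14.8 in IL-4 libraries, a separation that left a normalised log2 change of −0.27 ± 0.31 (adjusted p = 0.879 by limma, and −0.14 without IL-4 replicate 1). The intron 1 region with the IRF and STAT matches shown above measured 17.8 and 12.3 in control and 20.2 and 12.2 in IL-4 libraries, and its groups overlapped. The tallest Irf1 region, 6146 bp upstream, measured 22.8, 15.6, 16.1 and 16.4, and the tallest Irf4 region, 37062 bp downstream, 16.9, 10.2, 17.4 and 9.32, both with overlapping groups. The Irf4 region with the overlapping IRF repeats measured 9.10, 13.9, 9.95 and 6.17. The tallest Irf7 region, 2601 bp upstream, measured 17.8, 9.80, 15.6 and 8.79, also overlapping. The remaining Irf5 region tested, 9263 bp upstream, measured 9.71 and 3.35 in control and 2.95 and 2.49 in IL-4 libraries (log2 change −0.81 ± 0.56). Its change was −0.14 without control replicate 1, the library with the high value, and −1.50 without control replicate 2, and the groups overlapped in the fit with missing peaks imputed.

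**Figure D3:**
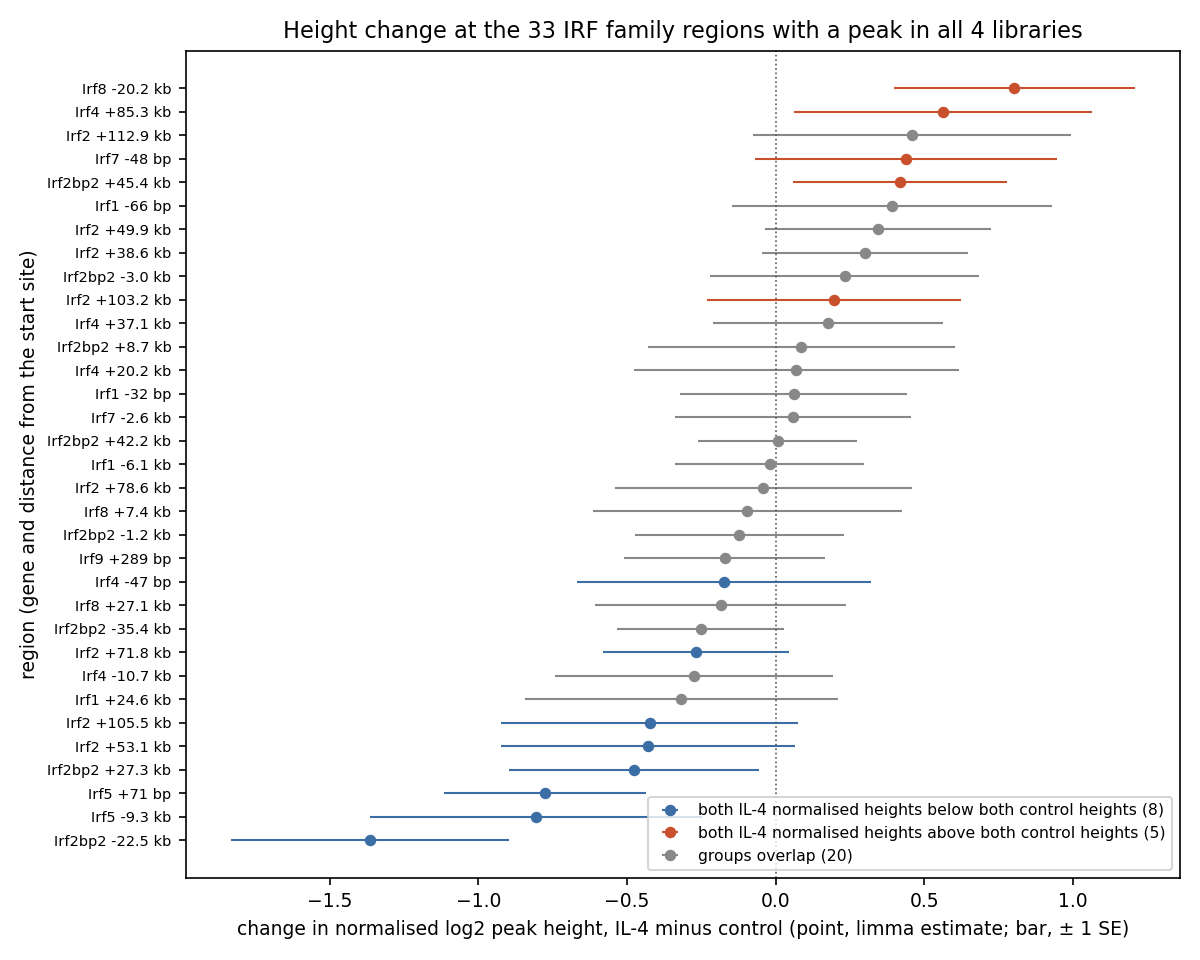
Change in quantile-normalised log2 peak height, IL-4 minus control (x axis), at the 33 IRF family regions with a peak in all 4 libraries, ordered by change and labelled by gene and distance from the start site. Points are limma estimates and bars ± 1 SE, with blue for the 8 regions lower and orange for the 5 higher in both IL-4 libraries and grey for the other 20. The Irf2bp2 region at −1.36 and the Irf8 region at 0.80 are the extremes, and none passed the adjusted threshold.

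Some peaks were confined to the libraries of 1 group. Both IL-4 libraries and no control library held a peak at 4 IRF family regions (5.33%, beside 2.53% of all regions). The reverse, both control libraries and no IL-4 library, held at 2 (2.67%, beside 4.33%). No test was made of these shares.

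The most pronounced of the 4 was 10938 bp upstream of Irf8 (chr8:120725339-120725538), with a height of 6.62 and 5.95 in the IL-4 libraries. A region in intron 1 of Irf2 (chr8:46752477-46752614, 12816 bp downstream) measured 5.34 and 3.73, and 1 in exon 2 of Irf2bp2, 1714 bp downstream, 3.26 and 3.86. The last, 21188 bp upstream of Irf1 (chr11:53748698-53748878), measured 2.95 and 3.73. All 4 were lower in IL-4 replicate 2 than the 6.41 that was the lowest library median. Those held by the control libraries were as low, with 3.17 and 4.93 in intron 6 of Irf2 (chr8:46837126-46837257) and 2.93 and 4.90 at 20958 bp upstream of Irf2bp2 (chr8:126614332-126614457).

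A further fit took in the 42752 regions with a peak in at least 2 libraries, with missing peaks set to the lowest height of their library. In that fit, 7 of 59 IRF family regions had an unadjusted p under 0.05 (11.9%, beside 11.3% of all 42752) and 0 passed the adjusted threshold by limma, as did 0 over all regions. Of these 7, the Irf5 promoter and the Irf2bp2 region 22537 bp upstream were lower with IL-4 and the others higher. Shares by direction over all regions were not counted. The lowest p was that of a region 34494 bp upstream of Irf4 (log2 change 2.77, limma adjusted p = 0.389). It measured 3.17 in control replicate 1 and 9.54 and 8.70 in the IL-4 libraries, with no peak in control replicate 2. Changes in this fit rest on imputed values where a peak was missing.

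**Figure D4:**
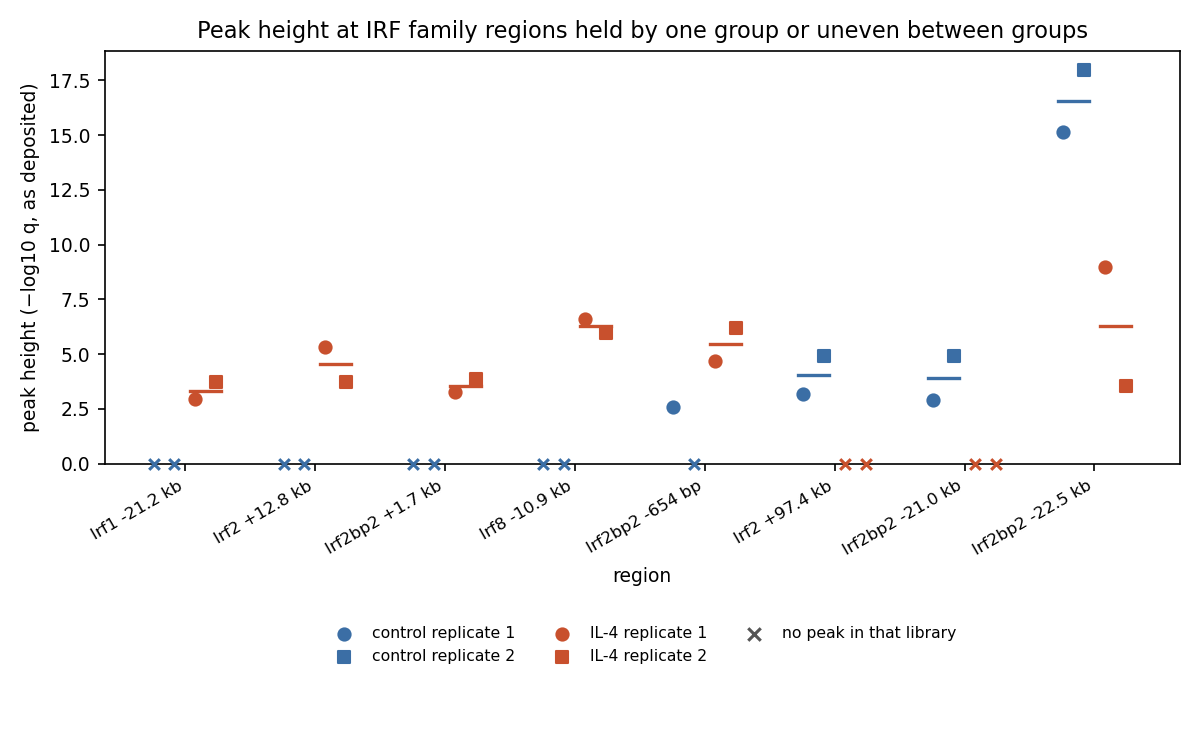
Peak height, as deposited (y axis, −log10 q, linear from 0), at the IRF family regions held by 1 group only and at 2 Irf2bp2 regions uneven between the groups, labelled by gene and distance from the start site. Blue marks are control and orange marks IL-4 libraries, circles replicate 1 and squares replicate 2, short bars the group means, and crosses on the axis libraries with no peak. The Irf2bp2 region 22537 bp upstream stands at 15.2 and 18.0 in control against 8.99 and 3.55 in IL-4 libraries. All of these values but the 3.55 lie above the regions held by 1 group.

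Motifs of the factors' families were counted in the IRF family regions by matching letters on both strands. The IRF repeat GAAANNGAAA was in 4 of 75 regions (5.33%, beside 3.62% of all 60710) and the ETS-IRF composite GGAANNGAAA in 7 (9.33%, beside 4.58%), with 1 region holding both. The STAT palindrome TTCNNNGAA was in 10 (13.3%, beside 6.90%) and TTCNNNNGAA in 9 (12.0%, beside 7.23%), with 2 holding both. AP-1 (TGACTCA or TGAGTCA) matched 17 (22.7%, beside 18.1%), the PU.1 core GAGGAA 40 (53.3%, beside 38.2%) and NF-kB 4 (5.33%, beside 2.20%). An ETS-IRF match and a PU.1 core can share bases.

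Because the IRF family regions were longer, the same motifs were counted in 200 bp around the centre of each region's highest peak. NF-kB was then in 4 regions (5.33%, beside 1.77%) and AP-1 in 15 (20.0%, beside 17.1%). The PU.1 core was in 36 regions (48.0%, beside 35.5%), ETS-IRF in 5 (6.67%, beside 4.18%) and the STAT palindrome with 4-base spacing in 7 (9.33%, beside 6.32%). The 3-base STAT palindrome was in 3 (4.0%, beside 5.85%) and the IRF repeat in 2 (2.67%, beside 3.17%), below their shares over all regions, whereas in whole regions both had been above. The 4-base STAT palindrome was in 1 of the 4 regions held by IL-4 libraries only, that in exon 2 of Irf2bp2, and in 1 of the 2 held by control libraries only, that in intron 6 of Irf2. No match says only that these letters are not in the window.

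In the RefSeq promoter windows (GRCm38.p6, 250 bases before to 50 after a start site), 12 promoters of the 9 genes matched by symbol. IRF and ETS-IRF matches were found in that of Irf2 only (3.44% and 2.72% of all 32851 promoters). The ETS-IRF composite printed above for the Irf5 promoter region, at an internal start site, lay outside these windows. The 3-base STAT palindrome was in the promoters of Irf1, Irf2 and Irf8 (8.30% of all) and the 4-base one in that of Irf9 (6.95%). The PU.1 core was in 4 promoters, of Irf2, Irf4 and Irf9 (28.3% of all), the NF-kB motif in those of Irf1 and Irf2 (2.46%), and the AP-1 motif in none (5.20%).

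Other genes of the interferon and IRF pathway were counted from a fixed list of 32 genes, of which 30 had 184 regions, 94 of them tested. None passed the adjusted threshold in either direction by limma (lowest adjusted p = 0.0945). Both IL-4 heights were above both control heights at 18 of the 94 (19.1%, beside 19.2% of all tested) and below at 13 (13.8%, beside 18.6%). Of the 184 regions, 4 were held by IL-4 libraries only (2.17%, beside 2.53%) and 10 by control libraries only (5.43%, beside 4.33%). Among the groups of the list, the 13 sensors and adaptors had 9 regions apart in the higher direction (27.3%) and 2 in the lower (6.06%) of 33 tested, with a median log2 change of 0.22. The 5 kinases had 1 and 2 of 14 (7.14% and 14.3%, median −0.17), the DNA-binding partners 5 and 7 of 27 (18.5% and 25.9%, median 0.05), and the interferons and receptors 3 and 2 of 20 (15.0% and 10.0%, median −0.07). These shares stand beside the same 19.2% and 18.6% of all tested regions and rest on few regions each.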

How the data were processed

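ATAC-seq peak lists of BMDMs were analysed, 2 control and 2 IL-4 libraries. The authors aligned reads with BWA 0.7.10 (mm10), called peaks per library with MACS2 2.0.10, removed blacklisted regions and annotated peaks with HOMER 4.2, and SAMtools 0.1.19 was also named in the submitters' processing notes. Tn5 shifting and duplicate removal are not given in the sources used here. The deposited score was read as −log10 of the q-value, from its minimum of 1.30 (−log10 of 0.05 is 1.301), although the methods state q ≤ 0.01 and 133 to 603 peaks per library fell below 2. No deposited column gives reads, so no count test and no counting interval was possible. Autosomal, X and Y peaks were merged at 1 bp overlap, and a region's height in a library is its highest peak. Log2 heights of regions present in all libraries were quantile-normalised and tested with limma 3.58.1 (R 4.3.3, variance trend, Benjamini-Hochberg). Scripts were tested on simulated data. Members, lists and motifs were chosen with earlier results of these data known. Named regions were each gene's promoter and tallest region, those held by 1 group only, and those apart with an unadjusted p under 0.05. Sequences came from GRCm38.p6. Alternatives were other normalisations, variance models, peak cut-offs, merging distances, region heights, a replicate block, imputed missing peaks and leaving out each library. Some items are not reported here.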

Additional observations from a re-analysis of the deposited data

How the results depend on the processing

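No IRF family region passed the adjusted threshold under any of the alternatives run. The median log2 change, −0.02, was 0.025 with median scaling and −0.22 without normalisation, and −0.11 to 0.16 without 1 library. The 5 regions with both IL-4 heights above control became 0 without normalisation, 3 with peaks above the median height, 14 with missing peaks imputed and 10 to 16 without 1 library, where fewer values need to be apart. The 8 below became 12 without normalisation, 3 with peaks above the median height, 11 with missing peaks imputed and 11 to 16 without 1 library. The 4 regions held by IL-4 libraries only became 1 with peaks above the median height, 10 when a peak in 1 control library was tolerated and 5 to 9 without 1 library. The 2 held by control libraries only became 13 when a peak in 1 IL-4 library was tolerated and 4 to 11 without 1 library. The shares over all regions were not counted under these alternatives, so these counts describe the settings and not the family. The difference in regions per library ranged from −10.5 to 1.5, with 1.5 without IL-4 replicate 2. For 6 tested promoter regions and the Irf2bp2 region 22537 bp upstream, 82 of 87 alternative values kept their direction. The variance model and the replicate block cannot change these estimates, and their values equalled the main ones. Where the groups were already apart, leaving out 1 library could hardly turn the sign either. Part of the 82 was therefore fixed in advance, and the count does not measure stability. The 5 that reversed were the Irf1 promoter without normalisation (−0.17), with peaks above the median height (−0.0034), without control replicate 2 (−0.15) and without IL-4 replicate 1 (−0.20), and the Irf9 promoter with summed heights (0.31). Without 1 library the Irf1 promoter ranged from −0.20 to 0.32. The cause was not tested. The replicate numbers were not taken as a pairing: the deviations of same-numbered libraries had a correlation of 0.0068 over 25442 regions. That value shows no shared deviation in height and cannot show how the libraries were prepared. The replicate block left 0 IRF family regions past the threshold (lowest adjusted p = 0.275 by limma) and raised the pathway regions past it from 0 to 1. Over all 25442 regions, the block raised those past it from 4 higher and 2 lower to 11 higher and 3 lower. The pathway region lay 24319 bp downstream of the start site of Tlr4, the lipopolysaccharide receptor. Its height was 6.50 and 4.53 in control and 26.3 and 13.3 in IL-4 libraries (log2 change 2.003, adjusted p = 0.0945 without and 0.0306 with the block by limma).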

Other observations

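Of relatives outside the 9 genes, Irf2bpl had 17 regions and Irf2bp1 had 5. A peak in all 4 libraries was present at 6 regions of Irf2bpl and 1 of Irf2bp1, and 0 of them passed the adjusted threshold by limma (lowest adjusted p = 0.883 and 0.862). The median log2 change of the Irf2bpl regions was 0.19, and that of the Irf2bp1 region 0.52. A peak was held by control libraries only at 1 region of each gene (5.88% for Irf2bpl and 20.0% for Irf2bp1, beside 4.33% of all regions). IL-4 libraries only held 0 of them (beside 2.53%).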
